A study of Homo sapiens with 4 samples.

Results

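The regions described are intronic tiles of protein-coding genes: windows of 1000 bp on an autosome that hold 40 or fewer CG dinucleotides, lie wholly within the span of a protein-coding gene, touch no exon of any annotated gene and lie more than 2 kb from every annotated transcription start site (TSS). Of the 72455 tiles in the 3 deposited tables of differential methylation, 69094 were autosomal and 15744 of these met the rule. Another 671 tiles met every condition but the CG limit. At the limit itself, 62 tiles held exactly 40 CG and were kept, and 60 held 41 and were not; in ShC-S vs ShLy75-S, 34 of 52 and 24 of 40 of them had a positive difference. Of the tiles kept, 542 lay in more than 1 protein-coding gene span and were counted for each of those genes.

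DNA methylation had been measured by reduced representation bisulfite sequencing (RRBS) in 4 libraries of SKOV3, a widely used line of human ovarian cancer cells that grows with a mesenchymal-like shape. Each library came from 1 clone: ShC-S with a control shRNA, ShLy75-S in which an shRNA suppresses the antigen receptor gene LY75, Ly75-KO-S in which CRISPR inactivates it, and Ly75-OV-S, the rescue clone, which expresses an shRNA-resistant LY75 cDNA in LY75 shRNA cells and therefore still carries that shRNA. ShC-S and Ly75-OV-S are the mesenchymal (M) and ShLy75-S and Ly75-KO-S the epithelial (E) clones. ShC-S vs ShLy75-S is called the knockdown comparison here and Ly75-OV-S vs Ly75-KO-S the knockout comparison. The phrase after knockout refers below to Ly75-KO-S against the rescue clone, not against control cells. The mix sets both M clones against both E clones and so shares every library with the single comparisons. The authors' deposited tables give, for tiles past their thresholds of 25 points and a q-value of 0.01, how far percent methylation differed, in percentage points, with neither read numbers nor levels per library. The depth behind a difference is therefore unknown, no clone has a replicate, and a tile that is not listed may be below the thresholds or uncovered. A positive difference is read as higher methylation in the E clone. For the knockout comparison that reading rests on the composition of the mix, since the deposited name puts Ly75-KO-S first, and with the other reading all its signs would turn.

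Most CG dinucleotides outside CpG islands are methylated in differentiated human cells, and the bodies of transcribed genes are methylated along with the rest of the genome, through DNMT3B recruited by the histone mark H3K36me3 among other routes. Introns also hold enhancers, alternative promoters and transposable elements, whose methylation varies between cell types, and long late-replicating genes are among the regions that lose methylation in cultured cancer cells. RRBS reads only the ends of short fragments that begin and end at CCGG, the site cut by MspI, so it samples introns sparsely and favours those rich in CG. The intronic tiles held a median of 16 CG, against 19 over all autosomal listed tiles, and a median of 3 CCGG sites. Their median G and C content was 47.4% and their median distance to the nearest TSS 12176 bp, with the farthest at 464545 bp.

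These sequences show fragments the assay could read at tiles that carry the sharpest contrasts: differences of 100 points with the same sign in every table (NELL2, KALRN and SHANK2), or of 100 points with opposite signs in the single comparisons (TNS1 and CDYL2). Each is the most CG-dense MspI fragment of 40 to 300 bp in its tile, plus strand, 5′ to 3′, on GRCh37, the build also named hg19. Capitals mark CG and the CCGG sites at both ends. Which of these cytosines were read is not known from the tables.
NELL2, chr12:45188291-45188488, positive in every table: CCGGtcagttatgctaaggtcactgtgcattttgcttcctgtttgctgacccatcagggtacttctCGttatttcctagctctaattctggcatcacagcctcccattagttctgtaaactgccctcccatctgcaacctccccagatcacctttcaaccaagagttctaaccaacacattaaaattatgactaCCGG
KALRN, chr3:124035339-124035490, negative in every table: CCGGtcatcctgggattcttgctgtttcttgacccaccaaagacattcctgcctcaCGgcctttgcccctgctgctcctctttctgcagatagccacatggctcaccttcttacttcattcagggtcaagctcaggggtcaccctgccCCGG
SHANK2, chr11:70876721-70876885, negative in every table: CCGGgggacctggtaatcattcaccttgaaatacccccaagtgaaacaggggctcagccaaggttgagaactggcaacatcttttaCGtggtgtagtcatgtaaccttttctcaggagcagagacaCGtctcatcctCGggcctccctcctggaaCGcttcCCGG
TNS1, chr2:218775295-218775355, positive in the knockdown comparison and negative in the knockout comparison: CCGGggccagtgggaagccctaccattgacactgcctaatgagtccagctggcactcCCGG
CDYL2, chr16:80688076-80688120, negative in the knockdown comparison and positive in the knockout comparison: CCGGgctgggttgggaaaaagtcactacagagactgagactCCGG

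The fragments differ in how many CG they hold, and reads of 50 bp reach only those near a CCGG site. That of SHANK2, from intron 2 of 23, holds 6 CG in 165 bases, and that of NELL2 3 CG in 198 bases. The TNS1 fragment, from intron 4 of 32 of a focal adhesion gene, holds 2 CG in 61 bases, both within its CCGG sites, and the CDYL2 fragment 2 in 45 bases. Over the whole tile, CG numbered 7 for NELL2, 12 for KALRN, 23 for SHANK2, 3 for TNS1 and 20 for CDYL2. Of these, 2, 5, 9, 2 and 8 in that order lay within 50 bp of a CCGG site of the tile.

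The knockdown comparison listed 10582 intronic tiles, the knockout comparison 6772 and the mix 4377, which were 21.6%, 25.3% and 21.8% of the 48940, 26775 and 20067 autosomal tiles of these tables. That the knockdown table is the longest holds for all tiles and is not a feature of introns. In the knockdown comparison 6736 tiles (63.7%; 95% Wilson interval 62.7 to 64.6%) were higher in ShLy75-S, against 64.3% over all autosomal listed tiles. In the knockout comparison the share higher in Ly75-KO-S was 55.8% (54.6 to 56.9%), against 54.8%, and in the mix 65.2% (63.8 to 66.6%), against 64.8%. The intronic tiles thus had the sign balance of the tables they came from. Tiles outside protein-coding genes had 67.7% positive in the knockdown comparison and tiles within 2 kb of a TSS 60.4%, with the introns between them, while in the knockout comparison these shares were 54.0% and 54.8%. The intervals cover counting error and nothing else: nearby tiles depend on each other, RRBS reads can be copies of a single molecule, and there is no second clone of any kind.

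The median absolute difference was 50.0 points after knockdown, 43.2 points after knockout and 37.2 points in the mix, close to the 50, 41.8 and 36.9 points over all autosomal listed tiles. After knockdown 1655 intronic tiles (15.6%) stood at a complete difference, 100 points, against 13.1% of all autosomal listed tiles, and 1034 of these were positive. After knockout 687 tiles (10.1%; 9.45 to 10.9%) differed completely, against 9.32%, and in the mix 26 (0.594%), against 0.478%. Values also gathered at exactly 50 points, within 0.01 point, for 580 tiles (5.48%) after knockdown and 491 (7.25%) after knockout. In the mix, which combines libraries, 23 tiles (0.525%) did so. Complete differences were more frequent where few CCGG sites lay in the tile: they made up 24.4% of knockdown tiles with 1 site and 6.51% of those with 7 or more, and 13.6% and 2.70% after knockout. The tables hold no read numbers with which to set these values against depth.

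**Figure D1:**
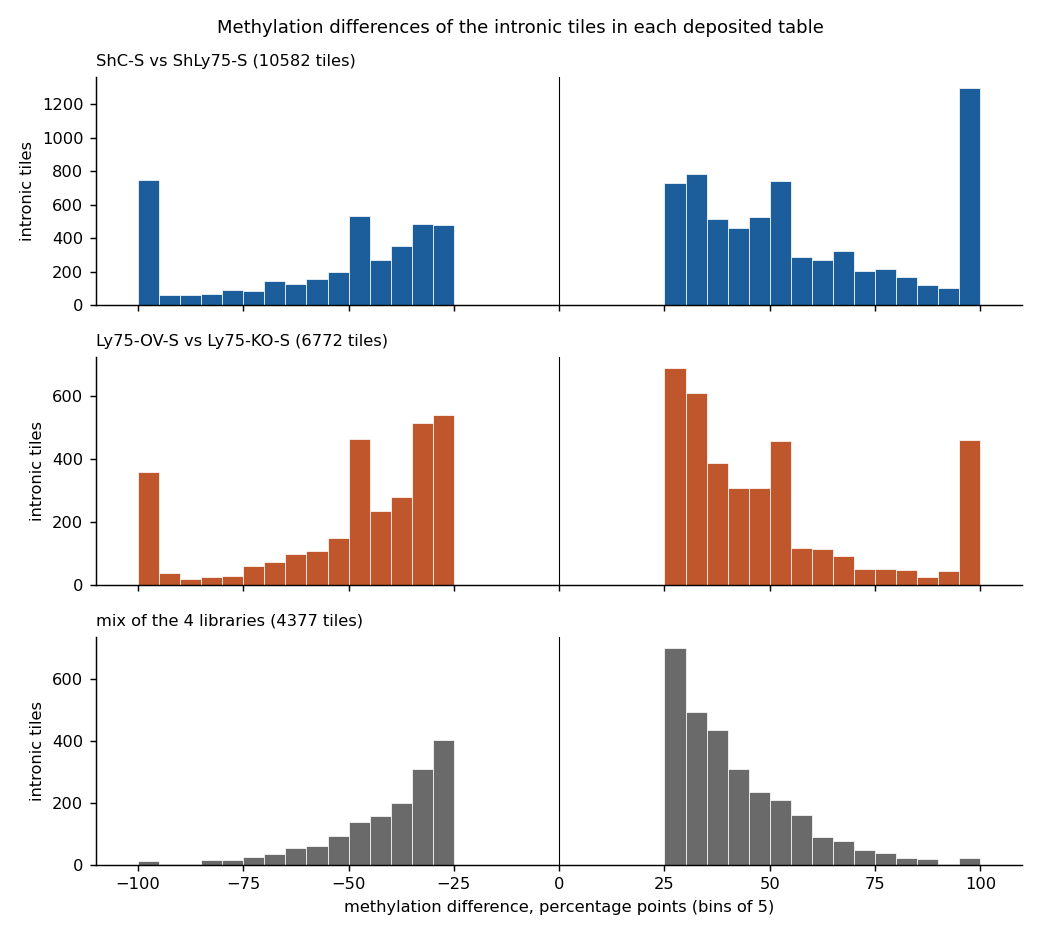
Number of intronic tiles (vertical axis) by methylation difference in percentage points (horizontal axis, bins of 5 points) in ShC-S vs ShLy75-S, Ly75-OV-S vs Ly75-KO-S and the mix; positive is higher in the E clone, and nothing is listed under 25 points. Both single comparisons have peaks at 100 and at 50 points on both sides, and the mix falls off from 25 points.

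In the knockdown comparison the sign of a tile moved with where it lay, and in the knockout comparison it hardly did. Among tiles with 1 to 5 CG, 171 of 402 (42.5%; 37.8 to 47.4%) were positive after knockdown, and the share was higher in each denser class, up to 241 of 314 (76.8%) among tiles with 36 to 40 CG. After knockout the share lay between 54.3% and 56.8% in all 8 classes. By G and C content, the positive share after knockdown was 43.2% under 40% and 78.6% at 60% or more, against 54.1% and 56.2% after knockout. Density of CG and G and C content go together. Within tiles of 45 to 55% G and C the share after knockdown went from 63.4% with 1 to 10 CG to 73.3% with 21 to 40 CG. At 55% or more it did not rise steadily, with 73.0%, 77.1% and 75.1% at 1 to 10, 11 to 20 and 21 to 40 CG. At like CG number it differed by G and C content: with 11 to 20 CG it was 53.3% under 45% and 77.1% at 55% or more.

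Gene length and chromosome position split the tiles in the same way. In genes of up to 50 kb, 73.5% of the tiles (911 of 1240) were positive after knockdown, and in genes over 1 Mb 51.1% (411 of 804); after knockout the values were 55.8% and 54.3%. Within 2 Mb of a chromosome end 77.9% were positive after knockdown, from 2 to 5 Mb 78.2%, and beyond 50 Mb 54.3%, with 54.0%, 55.5% and 54.2% after knockout. Tiles 2 to 5 kb from a TSS had 68.7% positive after knockdown and tiles over 100 kb away 46.1% (124 of 269; 40.2 to 52.1%), against 56.7% and 58.2% after knockout. The relations to gene length and to the chromosome end remained visible at like CG number. Among tiles with 11 to 20 CG the positive share after knockdown was 72.2% in genes of up to 100 kb. In genes over 500 kb it was 53.3%. It was 77.5% within 5 Mb of a chromosome end and 61.6% beyond 20 Mb. Neither relation was looked at within classes of G and C content. First introns, where many enhancers and alternative starts lie, held 67.4% positive tiles after knockdown (1925 of 2858, a tile counted for each gene) and inner introns 61.1%. Among chromosomes the share after knockdown ranged from 44.3% on chromosome 13, which is gene-poor, to 79.7% on the gene-rich chromosome 22, and after knockout from 50.0% on chromosome 13 to 64.9% on chromosome 21. The mix, built from the same libraries, followed the knockdown comparison for CG number, with 48.1% positive at 1 to 5 CG and 75.9% at 36 to 40 CG. These shares describe 1 pair of clones each, and whether they would differ between other clones was not tested.

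**Figure D2:**
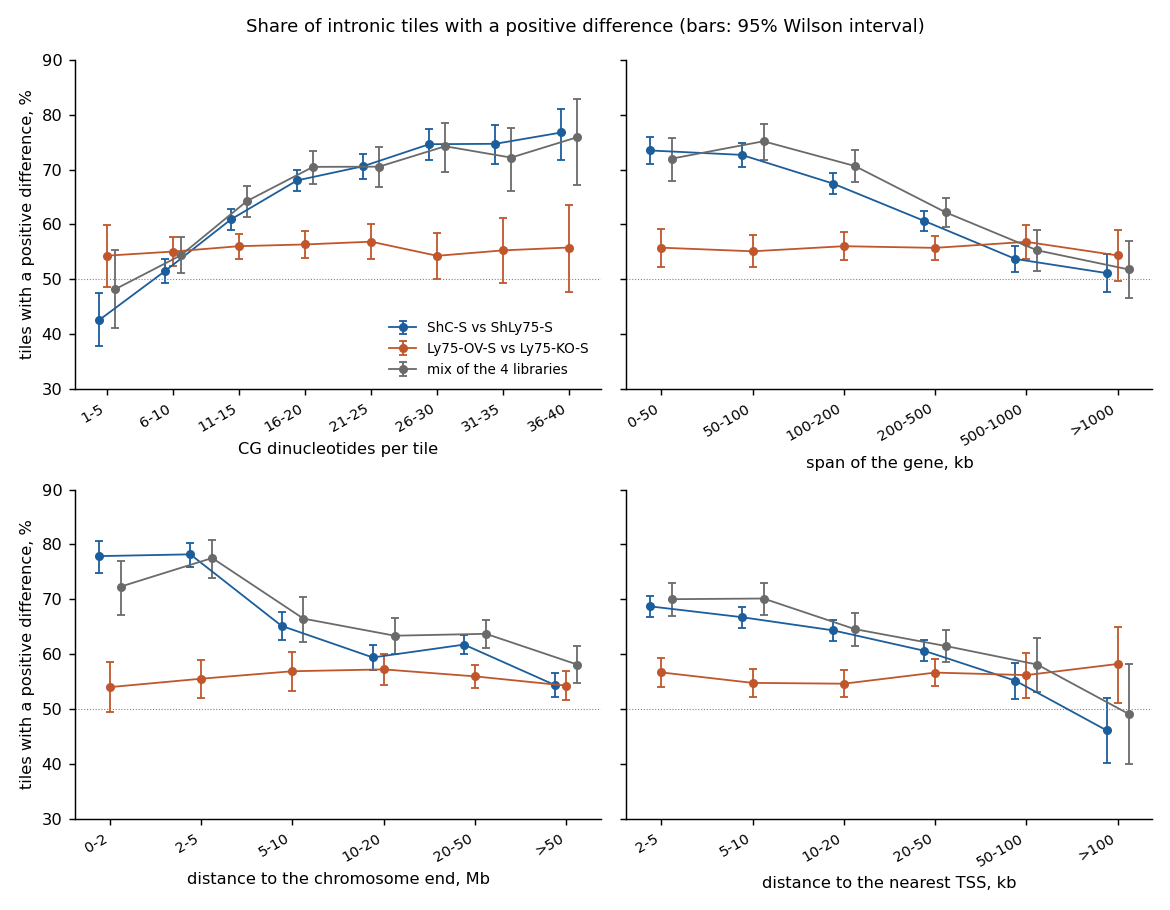
Percent of intronic tiles with a positive difference (vertical axes, from 30 to 90%) by CG number per tile, gene span, distance to the chromosome end and distance to the nearest TSS (horizontal axes), for ShC-S vs ShLy75-S, Ly75-OV-S vs Ly75-KO-S and the mix; points are shares and bars 95% Wilson intervals. The knockdown comparison and the mix slope in every panel, from 42.5 to 76.8% by CG number after knockdown, while the knockout comparison stays between 54.0 and 58.2%.

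The single comparisons share no library, so tiles listed in both can be set side by side. They are not of unrelated cells, however. The rescue clone, M in the knockout comparison, was made from LY75 shRNA cells, and such cells are E in the knockdown comparison. What this does to the match of signs was not tested. That held for 1854 intronic tiles, 17.5% of those listed after knockdown and 27.4% of those listed after knockout. Their signs matched in 978 (52.8%), against 52.5% over all autosomal tiles listed in both. Tiles positive in both numbered 635 and tiles negative in both 343, while 471 were positive after knockdown and negative after knockout and 405 the reverse. Larger differences did not match more often: the share was 52.7% of 349 tiles at 50 points or more in both, and 19 of 39 tiles at 100 points. Read with the other order of subtraction in the knockout table, the same tiles would match in 876 of 1854 cases. Of the tiles, 973 were listed in all tables, of which 519 were positive and 288 negative in each; as the mix reuses their libraries, that count follows in part from the single comparisons.

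At the far end of the tiles listed in all tables, 8 were at 100 points and 7 at -100 points in each of them. The positive ones named here lay in TAF3 (a subunit of the general transcription factor TFIID), CDKAL1 (a tRNA-modifying enzyme gene), NELL2 (a secreted ligand of ROBO3), CEACAM1 (a cell adhesion molecule) and TAFA5 (a secreted chemokine-like protein). The negative ones lay in KALRN (a guanine nucleotide exchange factor), SHANK2 (a postsynaptic scaffold), ARMH4, PEAK3 (a pseudokinase), CARD6 and ZNF704. For the NELL2 tile, with 7 CG in intron 3 of 19, the M clones read as unmethylated and the E clones as methylated in every comparison, and for the KALRN tile, with 12 CG in intron 6 of 59, the reverse. The weakest authors' q-value of a single comparison among these tiles was 4.72e-12, at ZNF704. Of 39 intronic tiles at a complete difference in both single comparisons, 20 had opposite and 19 the same signs, and over all autosomal tiles these numbers were 72 and 72. TNS1 and ERMP1, an endoplasmic reticulum metallopeptidase gene, had 100 points after knockdown and -100 points after knockout, and CDYL2, a chromodomain gene, and KCNQ3, a potassium channel gene, had -100 and 100 points; none of the 4 tiles was listed in the mix.

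Tiles of the same gene carried the same sign after knockdown over long distances, and after knockout they hardly did. Of 579 pairs of neighbouring tiles 1 kb apart in a gene, 455 (78.6%; 75.1 to 81.7%) had the same sign after knockdown, where the positive share alone would give 53.7%. The share was 75.7% at 6 to 20 kb, 71.1% at 51 to 100 kb and still 65.3% at 501 to 2500 kb. After knockout it was 52.7% (96 of 182; 45.5 to 59.9%) at 1 kb, 56.2% at 2 to 5 kb, 51.1% at 51 to 100 kb and 48.5% at 501 to 2500 kb, where the positive share alone would give 50.7%. Pairs in different genes also matched after knockdown, with 67.3% of 1313 pairs at 51 to 100 kb and 63.6% of 4177 pairs at 101 to 200 kb, below the 72.5% of 9105 pairs in the same gene at 101 to 200 kb. Long genes with many tiles weigh on these counts: without the 15 genes of most tiles, the shares after knockdown were 78.0% at 1 kb, 69.5% at 101 to 200 kb and 59.0% at 501 to 2500 kb. At 51 to 100 kb the share without these genes was 69.3%, close to the 67.3% of pairs in different genes. In the mix the share was 79.1% at 1 kb and 56.9% at 501 to 2500 kb.

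**Figure D3:**
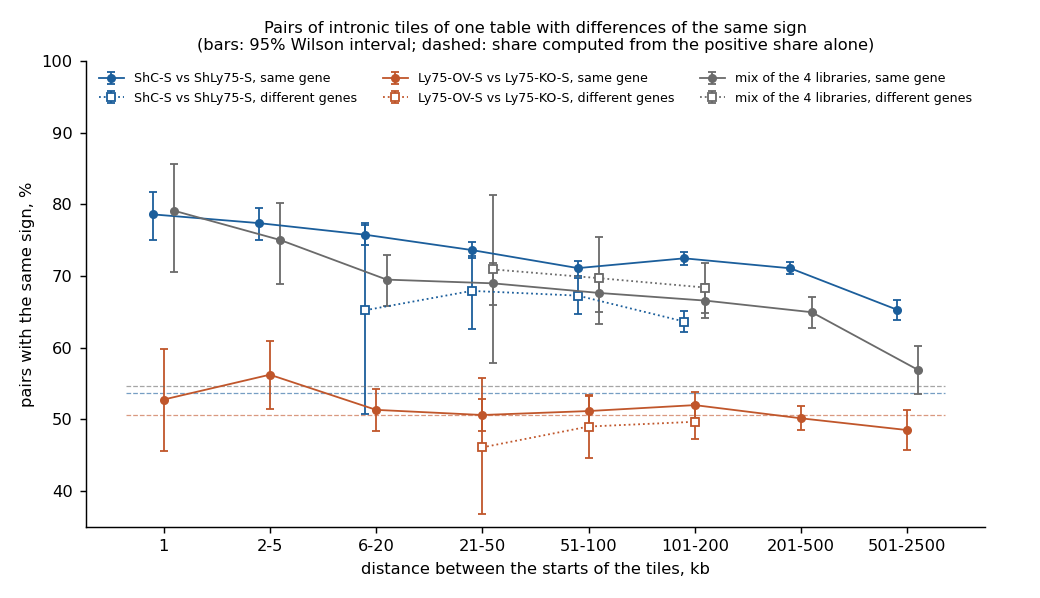
Percent of pairs of intronic tiles with differences of the same sign (vertical axis, from 35 to 100%) by distance between their starts in kb (horizontal axis), for each table, in the same gene (filled circles) and in different genes (open squares, classes with at least 20 pairs); bars are 95% Wilson intervals and dashed lines the share that the positive share alone gives. Same-gene pairs run from 78.6 to 65.3% after knockdown and between 48.5 and 56.2% after knockout.

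Intronic tiles fell in 5342 of 19229 autosomal protein-coding genes (27.8%), of which 2601 held a single tile, 855 held 5 or more and 288 held 10 or more. These 288 genes carried 5118 tiles, 32.5% of all, and were long, with a median span of 426 kb against 27.6 kb over all autosomal protein-coding genes. The 3 genes with most tiles were PTPRN2 with 98, DLGAP2 with 96 and CDH4 with 95, encoding a phosphatase-like protein of secretory vesicles, a postsynaptic scaffold and R-cadherin. PTPRN2 was listed in 16 of its 22 introns. After knockdown 60 of 71 PTPRN2 tiles were positive, with -100, 50.0 and 100 points as lowest, median and highest value, and after knockout 17 of 39, with a median of -28.3 points. DLGAP2 had 71 of 77 positive after knockdown and 16 of 34 after knockout, and CDH4 67 of 74 and 13 of 29. In each of these genes the knockdown tiles were thus mostly higher in ShLy75-S and the knockout tiles were divided.

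The other genes among the 15 with most tiles fell into 3 patterns. PRDM16 (a zinc finger regulator of brown fat identity), RBFOX3 (the neuronal splicing factor NeuN), GSE1, TAFA5, ADARB2 (a brain-expressed member of the RNA editing enzyme family) and KCNQ1 (a voltage-gated potassium channel in an imprinted domain) were mostly positive after knockdown, from 36 of 45 in GSE1 to 27 of 29 in KCNQ1. Their knockout tiles were positive in 14 of 25 for PRDM16, 15 of 26 for RBFOX3, 23 of 33 for GSE1, 16 of 23 for TAFA5, 18 of 25 for ADARB2 and 8 of 12 for KCNQ1. All but 1 of the 72 GSE1 tiles lay in introns of longer transcripts, outside the canonical one, while TAFA5 had tiles in each of its 3 introns. CAMTA1, ZFHX3 and CSMD1 were less one-sided after knockdown, with 25 of 40, 27 of 38 and 27 of 37 positive. KAZN, whose product kazrin is a desmosome-associated protein, SORCS2, a sorting receptor gene, and SHANK2 went the other way, with 12 of 42, 10 of 35 and 4 of 32 positive after knockdown. SHANK2 values after knockdown ran from -100 to 100 points with a median of -39.3 points, and after knockout 15 of 27 were positive with a median of 29.2 points. KAZN had 14 of 21 positive after knockout and SORCS2 13 of 25. The genes also differed in chromosome position. Mostly positive DLGAP2, ADARB2, KCNQ1 and PRDM16 begin between 687628 and 2985732 bp along their chromosomes. After knockdown 77.9% of all intronic tiles within 2 Mb of an end were positive, and 78.2% from 2 to 5 Mb. KAZN begins at 14219287 bp and SHANK2 at 70313959 bp, but the less one-sided CSMD1 at 2792875 bp. Whether position accounts for the patterns was not tested.

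**Figure D4:**
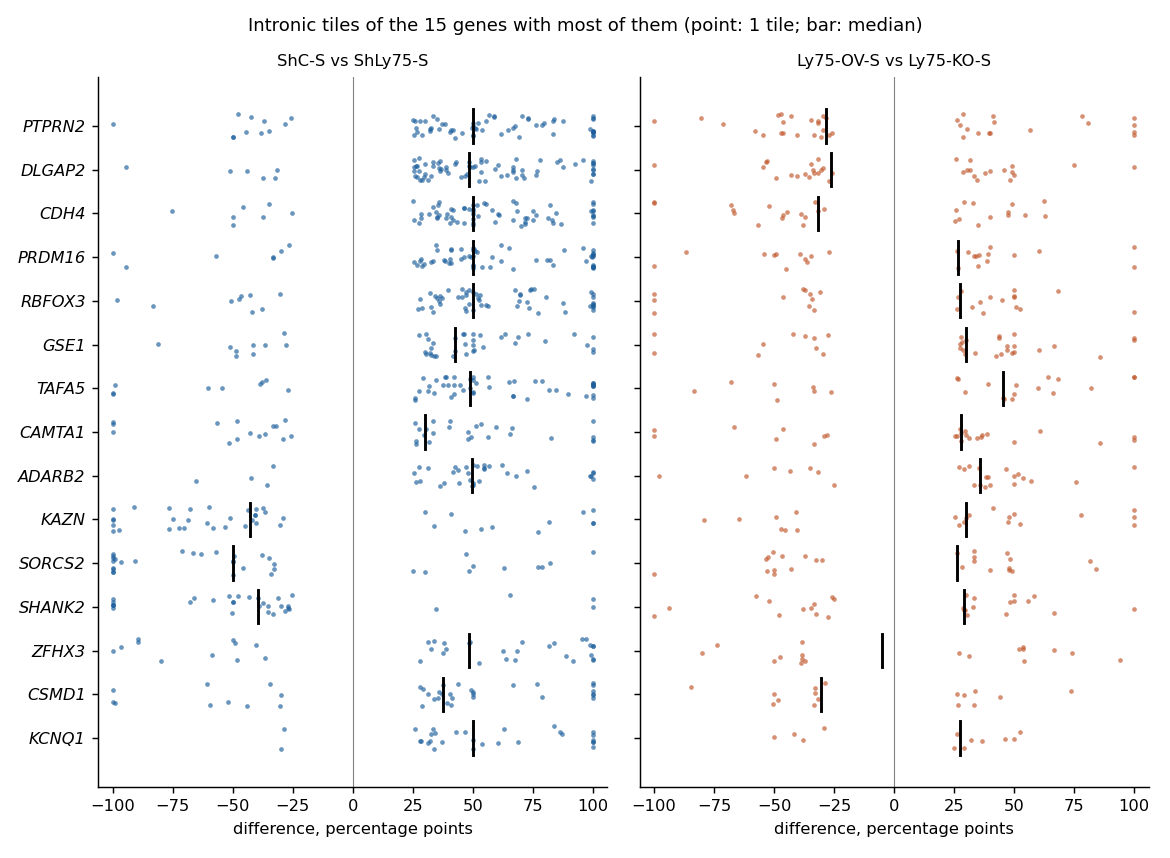
Methylation difference in percentage points (horizontal axes) of every intronic tile of the 15 genes with most of them (vertical axis), after knockdown (ShC-S vs ShLy75-S, left) and after knockout (Ly75-OV-S vs Ly75-KO-S, right); each point is 1 tile, spread vertically at random, and the black bar is the median. After knockdown 12 genes have positive medians and KAZN, SORCS2 and SHANK2 negative ones, from -39.3 to -50.0 points; after knockout tiles of both signs stand in every gene.

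Set against gene length, the order changed. Among genes with 8 or more tiles, PLCH2, a phospholipase C gene, had most per 100 kb, with 25.1 (20 tiles in 79.6 kb), followed by NTSR1, the neurotensin receptor gene, with 24.1, PRDM16 with 21.9, JPH3, a junctophilin gene, with 21.8, LRRC4B with 19.4, TAFA5 with 19.1, RBFOX3 with 18.5 and NTNG2, a netrin-G gene, with 18.2. All 16 PLCH2 tiles of the knockdown comparison were positive, from 29.4 to 100 points with a median of 65.8 points, and after knockout 3 of 7 were. JPH3 had 16 of 17 positive after knockdown and 6 of 8 after knockout. NTNG2 was mostly positive in both, with 9 of 10 after knockdown (median 60.8 points) and 6 of 6 after knockout (median 46.9 points). LRRC4B, an adhesion molecule of synapses, had 7 of 7 positive after knockdown, with a median of 86.2 points. NTSR1 had 12 of 13 positive after knockdown and 1 of 3 after knockout.

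Among genes with 8 or more tiles in a single comparison, tiles of a gene were more one-sided after knockdown than after knockout, and most genes held both signs. Over all genes with a tile, also those with a single one, 1023 of 4181 held both signs after knockdown and 927 of 3445 after knockout. Of 245 genes with 8 or more tiles in the knockdown comparison, 33 had positive tiles alone, 6 had negative tiles alone, 102 had at least 80% positive tiles and 23 at most 20%. Of 94 such genes in the knockout comparison none had tiles of a single sign, 3 had at least 80% positive tiles and 3 at most 20%. The median positive share per gene was 75% after knockdown and 55.6% after knockout. The sets of genes differ, and over all intronic tiles the positive share was 63.7% after knockdown and 55.8% after knockout. How many one-sided genes these shares alone would give was not computed. For 216 genes with 5 or more tiles in each single comparison, the medians had the same sign in 115 (53.2%): 87 were positive in both, 28 negative in both, 47 positive after knockdown and negative after knockout, and 54 the reverse.

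SDK2 (a cell adhesion protein of the retina), CFAP77 (a ciliary protein), CUX2 (a homeobox factor of cortical neurons) and TSHZ2 (a zinc finger factor) were positive in every tile after knockdown. SDK2 had 19 tiles from 26.6 to 83.3 points with a median of 45.8 points, and 8 of its 12 knockout tiles were positive. CFAP77 had 18 tiles with a median of 63.2 points, CUX2 18 with a median of 54.9 points, and TSHZ2 18 from 26.5 to 100 points with a median of 55.3 points. After knockout 7 of 10 TSHZ2 tiles were positive, the highest at 100 points, and the lowest was -79.2 points. That lowest tile, in intron 1, had 61.4 points after knockdown.

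The long genes CACNA2D3 (a calcium channel α2δ subunit), PTPRM (a homophilic adhesion receptor phosphatase), KCNMA1 (the BK potassium channel) and CDH18 (a classical cadherin) were negative in every tile after knockdown. CACNA2D3 had 17 tiles from -100 to -30.1 points (median -54.8 points), spread from intron 2 to intron 35 of 37, and 5 of its 8 knockout tiles were positive. At 3 tiles listed in both single comparisons the values were -82.7 and 56.5 points in intron 2, -39.7 and 41.7 points in intron 17, and -60.2 and 65.2 points in intron 31, so each had opposite signs. PTPRM had 15 tiles from -100 to -35.3 points with a median of -82.9 points, and a single knockout tile at 43.4 points. KCNMA1 had 12 knockdown tiles from -100 to -26.0 points (median -49.4 points), and its 6 knockout tiles were all positive, from 25.7 to 50.0 points (median 39.6 points). Only 1 KCNMA1 tile, in intron 2, was listed in both single comparisons, at -45.2 and 35.3 points. Of 216 genes with 5 or more tiles in each single comparison, 54 had a negative median after knockdown and a positive one after knockout. In 47 it was the reverse, and in 115 the medians had the same sign. CDH18 had 10 tiles from -98.9 to -28.9 points. These genes were chosen for their one-sided sign after knockdown, so that sign is a description, and the opposite sign after knockout rests on 1 pair of clones.

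**Figure D5:**
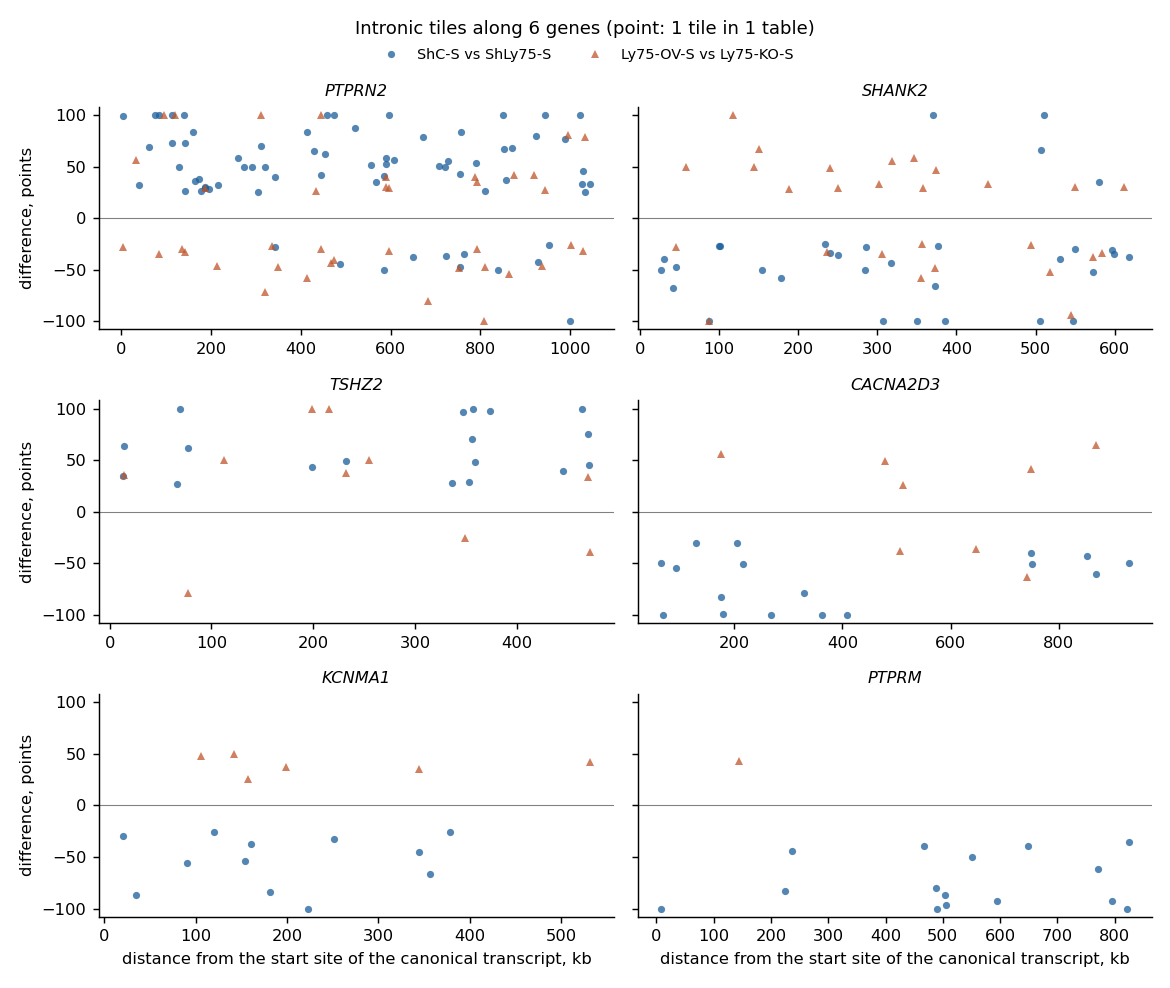
Methylation difference in percentage points (vertical axes) of intronic tiles along PTPRN2, SHANK2, TSHZ2, CACNA2D3, KCNMA1 and PTPRM, by distance from the start site of the canonical transcript in kb (horizontal axes), after knockdown (circles) and after knockout (triangles). The circles of TSHZ2 all lie above 0 and those of CACNA2D3, KCNMA1 and PTPRM all below it along the length of the gene, while the triangles of KCNMA1 all lie above 0, between 25.7 and 50.0 points.

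Among the 94 genes with 8 or more tiles in the knockout comparison, the highest positive shares were 9 of 10 in CACNA1C (the L-type calcium channel subunit), 8 of 9 in GLI2 (a Hedgehog pathway factor), 9 of 11 in TRAPPC9 (a vesicle trafficking protein) and 7 of 9 in C4orf50, of whose 14 tiles 9 also lie in another gene span. The same genes had 15 of 16, 8 of 12, 23 of 27 and 9 of 11 positive after knockdown. The lowest were 1 of 8 in OPCML, 2 of 11 in RFLNA, 2 of 10 in TMEM132B and 3 of 11 in PLXNA4, a semaphorin receptor gene. OPCML encodes a surface adhesion protein known for loss of expression with promoter methylation in ovarian cancer. It had 18 of 19 intronic tiles positive after knockdown (median 50.1 points) and a median of -36.6 points after knockout. RFLNA also differed between comparisons, with 13 of 15 positive after knockdown, whereas TMEM132B was mostly negative in both, with 1 of 13 after knockdown.

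Gene groups are given with the share of genes that held any intronic tile, which over all autosomal protein-coding genes was 21.7% in the knockdown comparison, 17.9% in the knockout comparison and 12.8% in the mix. The positive tiles of each group stand beside 63.7%, 55.8% and 65.2% over all intronic tiles, in the same order. Every group had longer genes than the genome, with medians from 47.2 to 197 kb, and longer genes can hold more tiles. Of 76 Wnt/β-catenin genes, ligands, receptors and TCF factors that control cell fate, 36 (47.4%) held a tile after knockdown, 25 (32.9%) after knockout and 20 (26.3%) in the mix. Their tiles were positive in 61 of 79 after knockdown (77.2%), 27 of 43 after knockout (62.8%) and 28 of 35 in the mix. ROR2, a Wnt5a receptor gene, had 14 of 14 positive after knockdown, with 25.7, 51.2 and 100 points as lowest, median and highest value, and without it the share was 72.3%. WNT7B had 3 of 4 positive after knockdown and 2 tiles at 100 points after knockout, TCF7L1 4 of 5 positive after knockdown, and WNT5B 2 of 3. None of the 6 WNT5B tiles lay in an intron of its canonical transcript, and 2 also lay in another gene span.

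Of 53 genes of TGF-β/BMP signalling, 17 (32.1%) held a tile after knockdown and 16 (30.2%) after knockout, with 32 of 43 and 18 of 29 tiles positive. BMP7 had 7 of 7 positive after knockdown, at 87.9, 88.9, 55.2, 98.8, 63.0, 81.3 and 58.0 points in introns 1, 3 and 4, and 1 knockout tile at -30.2 points. BMP6 had 3 of 3 and 4 of 4 positive. SKI, a repressor of SMAD signalling, was divided, with 2 of 5 positive in each single comparison, and LTBP2 had 2 of 4 after knockdown.

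The EMT regulators and markers were the group with the largest share of negative tiles in each table. Of 39 such genes 15 (38.5%) held a tile after knockdown and 10 (25.6%) after knockout, and the positive tiles were 18 of 45 after knockdown, 6 of 19 after knockout and 7 of 25 in the mix. RUNX1, a transcription factor, held 18 of the 45, of which 4 were positive with a median of -63.1 points, and without it the share after knockdown was 51.9% (14 of 27). Its knockout tiles were divided, with 3 of 6 positive. RUNX3 had 3 of 4 positive after knockdown and a single knockout tile at -67.4 points, and CDH11, a mesenchymal cadherin gene, 1 of 2 in each.

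Adhesion and matrix genes were listed often. Among 63 cadherin, junction and polarity genes 37 (58.7%) held a tile after knockdown, with 149 of 232 tiles positive, and 26 (41.3%) after knockout, with 63 of 126. Without CDH4 the share after knockdown went from 64.2% to 51.9%: CDH23 had 14 of 15 positive, while CDH13 (6 of 23, median -50.4 points) and CTNNA3, an α-catenin gene (4 of 13), were mostly negative. Of 74 collagen, laminin and integrin genes 31 (41.9%) held a tile after knockdown, with 74 of 124 positive, and 27 (36.5%) after knockout, with 33 of 65. COL23A1 had 14 of 15 positive after knockdown, COL26A1 7 of 8 and ITGA9 8 of 9, whereas COL5A1 had 2 of 11, with a median of -40.6 points, and 4 of 5 after knockout.

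Axon guidance, ion channel and receptor phosphatase genes, which are long, held many tiles. Of 66 axon guidance genes 37 (56.1%) held a tile after knockdown, with 81 of 155 positive (52.3%), and 30 (45.5%) after knockout, with 51 of 99. SLIT3 had 7 of 16 positive after knockdown and ROBO2, its receptor family member, 5 of 11. Of 87 ion channel and glutamate receptor genes 70 (80.5%) held a tile after knockdown, with 231 of 364 positive (63.5%), and 53 (60.9%) after knockout, with 111 of 195 (56.9%). These positive shares were close to the 63.7% and 55.8% over all intronic tiles. GRIK4, a kainate receptor gene, had 13 of 19 positive after knockdown and 8 of 13 after knockout. Of 19 receptor phosphatase genes 13 (68.4%) held a tile after knockdown, with 82 of 134 positive (61.2%), but PTPRN2 held 71 of these tiles and the others were positive in 22 of 63 (34.9%). In the mix, too, the share of these genes went from 48.3% to 27.6% without PTPRN2. PTPRT had 7 of 9 and PTPRD 4 of 9 positive after knockdown.

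Enzymes of DNA and histone methylation were 56 genes, of which 21 (37.5%) held a tile after knockdown and 19 (33.9%) after knockout. Their tiles were positive in 80 of 105 after knockdown, but PRDM16 held 65 of them, and without it 22 of 40 were positive; in the mix the share went from 68.8% to 38.1% in the same way. DNMT3A, a de novo DNA methyltransferase gene, had 6 tiles. After knockdown those were at 47.6 points in intron 3 and at -100 points in both tiles of intron 1, and after knockout at 35.5, -32.4, 33.3 and 79.6 points in introns 6, 4 and 3, of which the last, also positive after knockdown, had 67.3 points in the mix. KDM4B, a histone demethylase gene, had 3 of 8 positive after knockdown and 3 of 5 after knockout, and SMYD3 2 of 6 and 3 of 3.

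Of LY75, the genes the study selected and the classical EMT markers, 21 in all, 6 held an intronic tile. LY75 itself had 1, chr2:160695001-160696000 in intron 25 of 34, also within the read-through gene LY75-CD302; it was at -100 points after knockout and -25.6 points in the mix and was not listed after knockdown. A methylation table cannot show whether LY75 was disrupted, so it gives no check of the labels. WNT3, a Wnt ligand gene, had 5 tiles, chiefly in intron 1, and all their listed values were positive. After knockdown they were 100, 58.0 and 25.3 points, after knockout 38.1, 44.5 and 25.9 points, and in the mix 26.2, 26.8, 68.4 and 26.6 points. The tile at chr17:44873001-44874000 was listed in every table, with 100, 25.9 and 68.4 points.

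RAMP1, a receptor activity modifying protein gene, was looked up along with RAMP2 because the study names each of them in different places. It had adjacent tiles in intron 1 of 2, of which the first was at 49.6 points after knockdown and -33.3 points after knockout and the second at 100 points after knockout alone. CDH1, which encodes E-cadherin, the adhesion molecule of epithelia, had 2 tiles in intron 2 of 15, at -35.6 and -58.0 points after knockout, the latter also at -25.6 points in the mix, and none after knockdown. CDH2, which encodes N-cadherin, had 1 tile in intron 2 of 15 at -66.7 points after knockdown. TWIST1, a transcription factor gene that drives EMT, had 2 tiles, at -59.5 and -46.5 points after knockdown, and the latter was at -32.7 points in the mix. Both lay outside its canonical transcript, within an annotated gene span of 96.6 kb. The other 15 genes had no intronic tile.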

How the data were processed

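RRBS was done on 4 libraries of SKOV3 clones, 1 per group. Per the labels, DNA was cut with MspI and reads of 50 bp were aligned to hg19 with Bismark (0.16.1 in the submitters' processing notes, which also name Trim Galore 0.4.1, FastQC and methylKit; the labels name Trimmomatic). With methylKit the authors compared libraries in tiles of 1000 bp. The deposited tables hold, per tile, a difference in percentage points and the p-value and q-value the authors obtained from reads; no column of single samples exists in them. The minimum coverage is not given in the sources used here. The differences are the authors' own comparisons and were used because the regions are defined on them; no test was added, as the tables hold no values per library from which M and E clones could be compared.

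Genes, exons and TSSs came from GENCODE release 44 on GRCh37, with every transcript counted, and CG, CCGG and G and C from the GRCh37 sequence. Shares have 95% Wilson intervals. The sign was set with 10 genes whose promoter direction the study states: the listed tile nearest a TSS had that sign in 10 of 10 after knockdown (RAMP2 was used where the study also names RAMP1). For the mix, a least-squares fit over 973 intronic tiles gave weights of 0.532 and 0.418 on the single comparisons. Genes were named by rule: the 15 with most tiles, the 8 densest with 8 or more tiles, the 4 highest and 4 lowest by positive share among genes with 8 or more tiles in a single comparison, up to 4 per gene list, tiles at the extremes of same or opposite sign (6 per sign and 4), LY75, the study's selected genes and EMT markers. Ties among tiles at 100 points went by the smaller of the larger single-comparison q-values, a choice made after the ties were seen. The tiles and the gene lists were chosen with earlier results of these data known, and 3 list symbols, not on autosomes, were left out. Of the tiles named at the extremes, 1 is not reported here. Functions were tested on simulated data. Scripts ran in Python 3.11.15 with pandas 2.3.3, scipy 1.17.1, matplotlib 3.10.9 and numpy 2.4.6. Sex chromosomes, bisulfite PCR and expression were not analysed here.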

Additional observations from a re-analysis of the deposited data

Results flagged for a closer look

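Results are given here where the single comparisons went in opposite directions in every listed value. The difference between the comparisons was not tested in any of them, as each rests on 1 pair of clones. The rescue clone was also made from LY75 shRNA cells, so the comparisons are not of unrelated cells. Among the intronic tiles, TNS1 and ERMP1 stood at 100 points after knockdown and -100 points after knockout, and CDYL2 and KCNQ3 at -100 and 100 points. These 4 come from 20 such tiles, beside 19 with the same sign; over all autosomal tiles the numbers were 72 and 72, so the count is not particular to introns. KCNMA1 is the only gene among those named, with 5 or more tiles in each single comparison, whose tiles were all of 1 sign in each and of opposite signs between them, with medians of -49.4 and 39.6 points. Genes beyond those named were not searched for this, and KCNMA1 was named for its one-sided sign after knockdown. Of 216 genes with 5 or more tiles in each single comparison, 54 had medians in these directions, 47 the reverse and 115 the same sign.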

How the results depend on the processing

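The knockdown, knockout and mix tables are taken in that order. Of 56 recomputed values 36 stayed within 1.5 times the count or within the interval of the share or median, and no positive share crossed 50%. With 20 or fewer CG the positive share was 59.5% after knockdown and 62.2% in the mix, the medians 50.2 points after knockdown and 44.3 points after knockout, and 167 genes held 10 or more tiles. Over 5 kb from every TSS the knockdown share was 62.4%. At 50 points or more there were 5690, 2656 and 1007 tiles with medians of 76.4, 66.7 and 59.6 points, positive shares of 65.5% after knockdown and 67.9% in the mix, and 99 genes with 10 or more. With q under 1e-10 there were 4386 knockout tiles, the knockdown share was 64.8% and the medians 56.3, 49.7 and 39.0 points. The limit of 50 points raises the median by construction, and the cause of the shift under the q limit was not tested. The share of matching signs lay between 52.2 and 53.5% in every alternative, including 2589 pairs of tiles within 2 kb. Without the gene of most tiles, an alternative chosen after seeing the data, 3 lists crossed 50%: receptor phosphatases (34.9% positive after knockdown), EMT genes (51.9% after knockdown) and methylation enzymes (38.1% in the mix). Depth is unknown and no replicate exists, so no difference can be set against error between clones. No paired analysis was possible because each group has 1 library.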
